A study of Mus musculus with 36 samples.

Results

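The 9 genes described here encode interleukin 6 (Il6), the receptor chains through which it and its closest relatives signal (Il6ra, Il6st, Osmr and Lifr), the kinases bound to those chains (Jak1 and Jak2), the transcription factor they activate (Stat3) and the feedback inhibitor that this factor induces (Socs3). They were taken by name, as members of this pathway. Each is given by 1 transcript cluster, a group of array probes summarised together, which can cover several transcripts of a gene. For Socs3, which has 2 clusters, the one of higher mean was taken. The genes described here are 9 of 18820 genes with a cluster of 1 gene symbol. Of these genes 15049 passed a minimum intensity of 20 (4.32 on the log2 scale) on at least 3 arrays and were tested, among them 8 of the 9; Il6 did not pass.

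Gene expression was measured in the hypothalamus of male C57BL/6 mice on Affymetrix Mouse Gene 1.1 ST arrays, 1 array per mouse, 5 h after an intraperitoneal injection of 50 µl. The 6 groups received saline (Control), 15 pg TNFα (TNF), 50 pg IL-6 (IL-6 Low), 800 pg IL-6 (IL-6 High), or 15 pg TNFα with 50 pg IL-6 (TNF + IL-6 Low, called the low combination) or with 800 pg (TNF + IL-6 High, called the high combination), with 6 arrays in each. TNF replicate 4 was left out, so the TNF group has 5 arrays and 35 arrays were compared: it correlated with the rest at a median r of 0.27, where every other array lay between 0.972 and 0.988, and all 9 genes lay outside their range on the other 35 arrays, Il6 at 6.86 and Stat3 at 5.53. Of 13 hypothalamic markers 11 were measured and all 11 passed the minimum, with median log2 levels of 9.47 for Hcrt (orexin), 9.72 for Avp (vasopressin) and 10.22 for Oxt (oxytocin). Whole tissue was measured, so that fewer cells of a type and less RNA per cell cannot be told apart. All 5 treated groups were compared with the same 6 Control arrays, so a difference seen in several groups is not several independent observations.

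IL-6 binds its receptor IL-6Rα, in the membrane or in soluble form, and the pair recruits the shared signal transducer gp130, the product of Il6st. JAK kinases held by gp130 then phosphorylate each other and STAT3, which enters the nucleus and binds palindromic sites next to its target genes. One of these targets is Socs3, whose product binds gp130 and the JAK kinases and shuts the signal off, so its transcript is widely read as a sign of recent STAT3 activity. In the hypothalamus the same pathway is used by leptin, through the leptin receptor, which is a relative of gp130.

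Sequences at a start site of 2 STAT3 targets are shown because they hold matches to the palindromic kind of site that STAT3 binds. Socs3 was the only one of the 9 genes with a match to the STAT sites searched, TTCNNNGAA and the same letters with 1 more N in the middle, which read the same on both strands. Gfap, the intermediate filament of astrocytes, is a STAT3 target that was among the lowest of the response genes in the low combination, as given further on. Both sequences are from RefSeq on GRCm38.p6 and read 5′ to 3′ on the minus strand, from 250 bases before a start site, with the matches in capitals.
Socs3 (chr11:117969367-117969616): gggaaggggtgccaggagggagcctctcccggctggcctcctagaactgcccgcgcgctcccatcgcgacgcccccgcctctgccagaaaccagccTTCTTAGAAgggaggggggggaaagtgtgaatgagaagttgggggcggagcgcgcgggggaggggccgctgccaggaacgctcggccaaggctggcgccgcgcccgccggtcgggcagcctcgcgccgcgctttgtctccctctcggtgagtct
Gfap (chr11:102897194-102897450): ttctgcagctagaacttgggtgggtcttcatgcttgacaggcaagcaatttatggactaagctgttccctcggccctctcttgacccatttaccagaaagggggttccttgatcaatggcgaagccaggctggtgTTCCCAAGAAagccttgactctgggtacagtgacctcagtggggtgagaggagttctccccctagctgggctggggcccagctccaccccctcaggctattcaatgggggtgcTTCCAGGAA
The Socs3 match lies at -154 to -146 from the start site used. That site lies within the annotated span of Socs3 (chr11:117966079-117970336) and not at its upstream end. Gfap has a match to the longer motif at -115 to -106 and one to the shorter motif at -2 to 7. Over the 300 bases from 250 before to 50 after each start, the shorter motif was found in 1 of 10 promoters of the 9 genes (10%) and in 9 of 40 promoters of the STAT3 response genes listed below (22.5%), against 8.3% of 32851 promoters in all. The longer motif was found in 0 of 10, in 4 of 40 (10%) and in 6.95% of all. Socs3, Stat3 and Osmr belong to both sets, so the Socs3 match counts in each. A match is a stretch of letters and does not show that STAT3 binds there, and a window without one says nothing of sites elsewhere.

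None of the 8 tested genes passed the test in any treated group. After Benjamini-Hochberg adjustment over all 15049 genes with limma, the number of genes with an adjusted p under 0.05 was 0 (0%) for each of the 5 treated groups against Control. At an unadjusted p under 0.05, Il6st and Jak2 were called in the low combination, that is 2 of 8 where 9.58% of all genes (1442) were called. In the other groups 0 of 8 were called. The share of all genes was 5.29% (796) in TNF, 1.4% (211) at 50 pg and 2.07% (312) at 800 pg IL-6, and 2.05% (309) in the high combination. The group means of each of the 9 genes spanned 0.07 (Lifr) to 0.23 (Osmr) on the log2 scale. When the 6 groups were ordered by mean level, each of the 5 gaps between neighbours was smaller than the mean SD of the 2 groups, in all 9 genes.

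**Figure D1:**
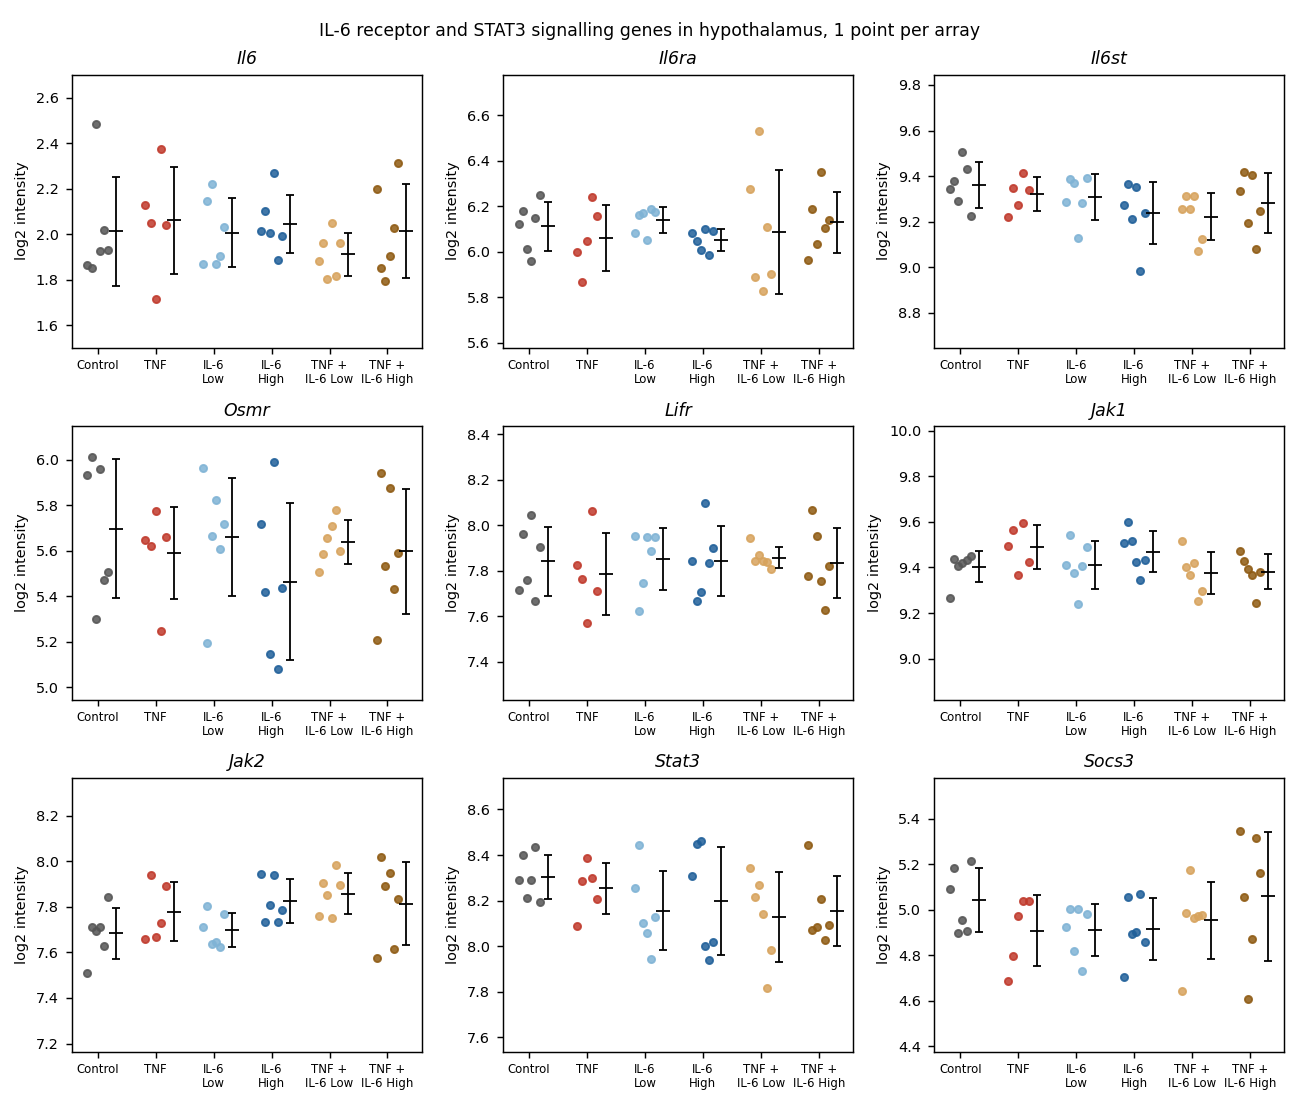
Log2 intensity (vertical axes, the same span in every panel) of the 9 genes in the 6 groups (horizontal axes), 1 point per array, with bars for the group mean and SD drawn beside the points; TNF replicate 4 is left out. The groups overlap in every panel, and Il6 stays at or below 2.49 in all of them, under the minimum of 4.32.

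Il6, the ligand, was not detected above the minimum on any of the 35 arrays. Its cluster lay between 1.85 and 2.49 in Control mice, with a median of 1.93. The 5 TNF arrays were at 2.13, 2.05, 1.72, 2.37 and 2.04, and the other treated groups lay between 1.80 and 2.31. The highest value, 2.49, belonged to a Control mouse and equals an intensity of 5.60. Fitted without the minimum, over 18820 genes, Il6 differed from Control by -0.10 to 0.05 on the log2 scale, with adjusted p from 0.771 to 1.00. At this signal no change of Il6 mRNA in the tissue was detected, which does not show that there was none.

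Il6ra encodes the IL-6 binding chain. Its log2 level ran from 5.96 to 6.25 in Control mice and from 5.83 to 6.53 over all 35 arrays. The differences from Control were between -0.06 (IL-6 High) and 0.03 (IL-6 Low), and the widest limits of their 95% confidence intervals were a 1.18-fold lower and a 1.15-fold higher level. The low combination showed the widest spread, with an SD of 0.27, and held the highest and the lowest array of all, replicate 3 at 6.53 and replicate 4 at 5.83. Replicate 3 was also the array with the highest mean level of 5 pituitary markers (11.57, where Control arrays lay between 4.43 and 6.08). The part of adhering pituitary in the Il6ra level was not tested.

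Il6st, which encodes gp130, was lower than Control in 5 of 5 treated groups by 0.04 to 0.14 on the log2 scale. Control mice lay between 9.22 and 9.51 with a median of 9.36. In the low combination the lowest, median and highest levels were 9.07, 9.26 and 9.31, and in IL-6 High they were 8.99, 9.26 and 9.37. In each of these groups 2 arrays were below every Control array and none was above, so the groups overlapped in most of their range. The difference in the low combination was -0.14 ± 0.07 (SE), with a 95% confidence interval from -0.28 to -0.00 and an adjusted p of 0.514 by limma. It lay between -0.17 and -0.11 when 1 array at a time was left out, and Il6st had a negative difference in all 5 groups under each alternative. The 5 TNF arrays were at 9.22, 9.35, 9.27, 9.42 and 9.34, all but the first within the Control range.

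Osmr encodes the chain that pairs with gp130 to bind oncostatin M. It had the highest SD between mice of 1 group among the 8 tested genes, 0.34 in IL-6 High, and the lowest of its own SDs was 0.10. Control arrays ran from 5.30 to 6.01 with a median of 5.72, and IL-6 High arrays from 5.08 to 5.99 with a median of 5.43. The TNF arrays were at 5.65, 5.62, 5.77, 5.25 and 5.66. In IL-6 High 2 of 6 arrays, and in TNF 1 of 5, lay below every Control array. The difference in IL-6 High was -0.23 ± 0.14 (SE), with an interval from -0.52 to 0.06, so that a level up to 1.43-fold lower is within its limits. The other 4 groups differed from Control by -0.11 to -0.04. These values depended on single arrays: TNF stood at -0.02 without TNF replicate 5, and IL-6 Low, at 0.06 without its replicate 2, turned sign in 4 of 12 fits, as the low combination did in 1 of 12. Without Control replicates 5 and 6, an alternative chosen after seeing the data, the differences were -0.34 in IL-6 High and -0.21 to -0.14 in the others. In TNF and in IL-6 High all 6 tested endothelial markers were lower than Control too, with median differences of -0.19 and -0.25, while 0 of 6 passed the test. Of the endothelial markers 4 of 6 were lower in IL-6 Low, 3 in the low and 5 in the high combination. Smooth muscle and pericyte markers were lower in all 5 groups (5 of 6 in each), and so were those of meningeal fibroblasts (10 of 10, but 9 of 10 in the high combination), also where Osmr differed by -0.06 or -0.04. The part of vessels and meninges in the Osmr level was not tested.

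Lifr encodes the receptor for leukaemia inhibitory factor, which also signals through gp130. It had the narrowest span of group means, from 7.79 in TNF to 7.86 in the low combination. Control arrays lay between 7.67 and 8.05, and all arrays between 7.57 and 8.10. The 5 differences lay between -0.05 and 0.02, and their intervals allowed a level at most 1.17-fold lower and 1.14-fold higher than Control. Of the variance between arrays 2.72% lay between the groups, where the median over all tested genes was 13.0%.

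**Figure D2:**
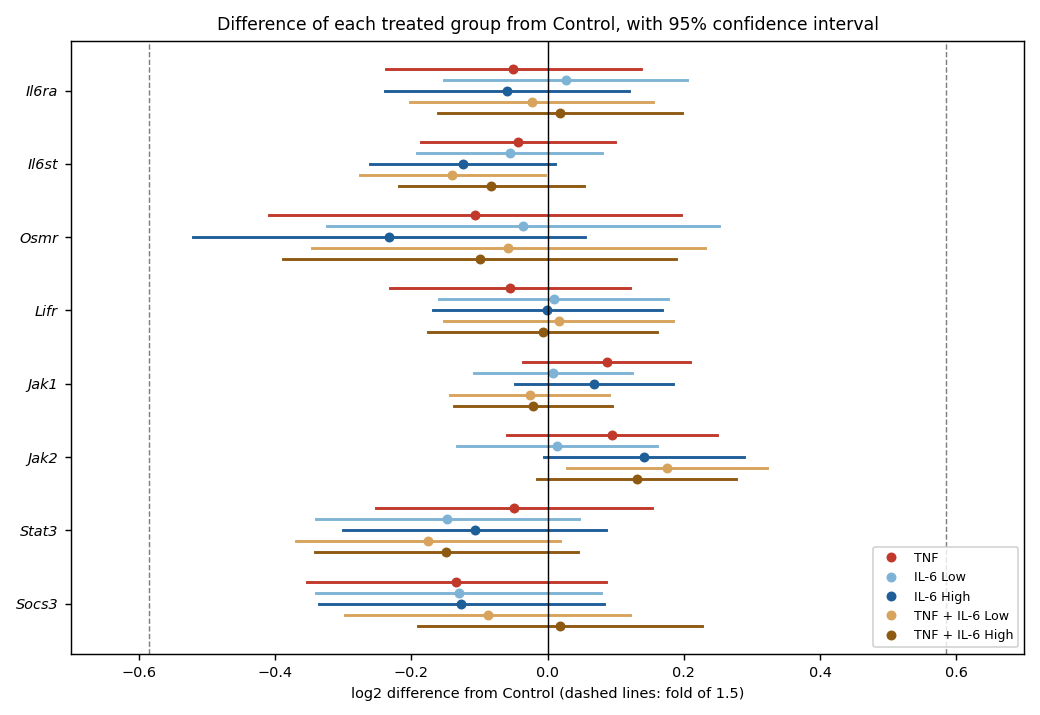
Difference of each treated group from Control on the log2 scale (horizontal axis) for the 8 tested genes (vertical axis), with 95% confidence intervals from limma; dashed lines mark a fold of 1.5. No interval reaches a dashed line, and 2 intervals in the low combination leave 0, those of Jak2 (0.03 to 0.32) and Il6st (-0.28 to -0.00).

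Jak1 and Jak2 encode the tyrosine kinases that are bound to gp130. Jak2 showed the largest share of variance between groups of the 8 genes (27.2%) and was higher than Control in 5 of 5 treated groups. Its Control levels ran from 7.51 to 7.84 with a median of 7.70. In the low combination they ran from 7.75 to 7.98 with a median of 7.88, and 4 of 6 arrays were above every Control array. In IL-6 High they ran from 7.74 to 7.94 (2 of 6 above all Control arrays), and in the high combination from 7.57 to 8.02 (3 of 6). The TNF arrays were at 7.66, 7.94, 7.67, 7.73 and 7.89, and 2 of 5 were above the Control range. IL-6 Low stayed within it, from 7.62 to 7.81. The difference was 0.18 ± 0.07 (SE) in the low combination, with an interval from 0.03 to 0.32 and an adjusted p of 0.511 by limma. It lay between 0.14 (without Control replicate 1) and 0.21 (without Control replicate 6) when 1 array was left out. In IL-6 High the difference was 0.14, in the high combination 0.13, in TNF 0.09 and in IL-6 Low 0.01. The sign of the last turned without Control replicate 1 (-0.02), and that in TNF with TNF replicate 4 included (-0.28). The highest level that the intervals allow is 1.25-fold that of Control. In the low combination, where Jak2 was highest, 10 of 11 hypothalamic markers were lower than Control (median -0.30). They were lower too in IL-6 Low (11 of 11, median -0.12) and TNF (10 of 11, median -0.12). In the high combination 9 of 11 were lower (median -0.15). In IL-6 High, with the next highest Jak2 level, 4 of 11 were lower (median 0.02). Over mice of the same group Jak2 ran against these markers (r = -0.48, or -0.34 without 2 arrays). Their part in the Jak2 level was not tested.

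Jak1 ran from 9.27 to 9.45 in Control mice, with 5 of the 6 arrays between 9.41 and 9.45. The TNF arrays were at 9.49, 9.57, 9.37, 9.59 and 9.42, and 3 of 5 were above every Control array. The IL-6 High arrays ran from 9.34 to 9.60, and 3 of 6 were above the Control range. The differences were 0.09 in TNF and 0.07 in IL-6 High and lay between -0.03 and 0.01 in the other groups. None had an unadjusted p under 0.05.

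Stat3, the transcription factor, was lower than Control in 5 of 5 treated groups. Control arrays lay between 8.19 and 8.44 with a median of 8.29. In the low combination the lowest, median and highest levels were 7.81, 8.18 and 8.34, in IL-6 Low 7.94, 8.12 and 8.45, and in the high combination 8.03, 8.09 and 8.44. Of 6 arrays 3, 4 and 4 were below every Control array in these groups, and 1 array of IL-6 Low and 1 of the high combination lay above every Control array. IL-6 High ran from 7.94 to 8.46 with 3 arrays below and 2 above all Control arrays, and the TNF arrays were at 8.09, 8.29, 8.39, 8.30 and 8.21. The differences were -0.18 ± 0.10 (SE) in the low combination (adjusted p = 0.532), -0.15 in IL-6 Low and in the high combination, -0.11 in IL-6 High and -0.05 in TNF. The first went to -0.11 without replicate 5 of that group, and the IL-6 High value to -0.06 without IL-6 High replicate 5. The intervals allowed a level of at most 1.11-fold that of Control, and down to 1.29-fold lower. Hypothalamic markers were lower beside Stat3 in the low combination (10 of 11, median -0.30), IL-6 Low (11 of 11, median -0.12), the high combination (9 of 11, median -0.15) and TNF (10 of 11, median -0.12), but not in IL-6 High (4 of 11, median 0.02). Their part in the Stat3 level was not tested.

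Socs3, the feedback inhibitor, did not pass the test in any group, and 4 of its 5 differences were below 0. The Control arrays ran from 4.90 to 5.21 with a median of 5.02, close above the minimum. The TNF arrays were at 4.69, 4.80, 4.97, 5.04 and 5.04. The lowest, median and highest levels of IL-6 Low were 4.73, 4.95 and 5.00. Those of IL-6 High were 4.70, 4.90 and 5.07, and those of the low combination 4.64, 4.97 and 5.17. In these 4 groups no array was above the Control range, and between 1 and 3 arrays of each were below it. The high combination was the widest group, from 4.61 to 5.35, with 2 of 6 arrays above and 2 below all Control arrays. The differences were -0.13 in TNF and at either dose of IL-6 alone, -0.09 in the low combination and 0.02 in the high combination. Without replicate 1 the low combination stood at -0.03, and the sign in the high combination turned in 5 of 12 fits with 1 array left out, which ran from -0.04 to 0.11. At 5 h the intervals of this cluster, the one of higher mean, allowed a level at most 1.17-fold that of Control and down to 1.28-fold lower. An earlier rise that had ended by then was not measured. A second cluster of Socs3, built on another accession, had group means from 4.59 (IL-6 Low) to 4.88 (IL-6 High) and hardly followed the first over the 35 arrays (r = 0.07), and the 2 clusters put the groups in a different order. The second cluster had a mean of 4.76 in Control and 4.87 in the high combination, and no interval was taken for it alone. With the mean of both clusters, the IL-6 High difference was -0.01.

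Because the groups cross TNFα (without, with) with IL-6 (none, 50 or 800 pg), the effect of each agent was also taken as a mean over the other. Averaged over mice without and with TNFα, 50 pg IL-6 went with a Stat3 difference of -0.14 ± 0.07 (SE), with an interval from -0.28 to 0.00 and an adjusted p of 0.806. For 800 pg the Stat3 difference was -0.10, and all 8 genes had an adjusted p of 1.00. The largest difference between the doses was that of Osmr, -0.12 for 800 against 50 pg, with an interval from -0.32 to 0.08. Averaged over the 3 IL-6 levels, TNFα went with a Jak2 difference of 0.08 ± 0.04 (SE), with an interval from -0.00 to 0.17 and an adjusted p of 0.804. Of the 8 genes 0 were called at an unadjusted p under 0.05 in these 4 comparisons, where 5.92% (50 pg), 1.97% (800 pg), 3.71% (between doses) and 5.99% (TNFα) of all genes were. The test of whether the IL-6 effect depended on TNFα gave adjusted p of at least 0.997 for the 8 genes, and 0 of 8 had an unadjusted p under 0.05, against 2.65% of all genes. The test of any difference among the 6 groups also called 0 of 8 at that level, against 3.01% of all genes.

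The wider pathway was described with 6 lists of 89 genes, of which 74 were tested, 8 of them the genes above. Of the 74 genes 0 passed the adjusted threshold with limma in any of the 5 comparisons with Control. At an unadjusted p under 0.05, 9 of 74 (12.2%) were called in the low combination, 5 higher and 4 lower, where 9.58% of all genes were. In IL-6 High 4 (5.41%) were called, against 2.07% of all genes, and in the high combination 1 (1.35%), against 2.05%. TNF and IL-6 Low had 0, where 5.29% and 1.4% of all genes were called. These shares rest on few genes.

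Among 7 tested ligands of the family, Ebi3, a subunit of IL-27 and IL-35, differed from Control by 0.20 in the low combination and 0.21 in IL-6 High on the log2 scale. Ctf1, cardiotrophin 1, differed from Control by 0.21 in the high combination. The Control median of Ebi3, 4.02, was under the minimum, and its cluster was over the minimum on only 7 arrays, with a highest level of 4.60. Its differences therefore rest on signals mostly under the minimum, and a change of Ebi3 cannot be read from them. The Control median of Ctf1, 4.41, was close above the minimum, and its cluster was over the minimum on 24 arrays. Clcf1, cardiotrophin-like cytokine factor 1, differed by -0.26 in the low combination and -0.18 in IL-6 Low, and Il27 by -0.17 in TNF, all with an unadjusted p above 0.05. Osm and Il6 were not over the minimum on enough arrays. Of 7 tested receptors 1 was higher than Control in TNF, IL-6 High and the low combination, 4 were in IL-6 Low and 2 in the high combination. The list medians ran from -0.11 (IL-6 High) to 0.01 (IL-6 Low), where the median of all genes lay between -0.02 and 0.01. Of all genes 55.4% were higher in TNF, 52.6% in IL-6 High, 44.1% in the low combination, 45.9% in IL-6 Low and 37.7% in the high combination. The leptin receptor Lepr ran from 5.26 to 5.94 in the low combination and from 5.43 to 6.11 in Control, a difference of -0.25 ± 0.12 (SE) with an adjusted p of 0.514.

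Of 8 tested kinases and STAT factors 1 was called at an unadjusted p under 0.05 in IL-6 High (2.07% of all genes), Stat6 with a difference of -0.16, and 1 in the low combination (9.58% of all), Jak2. Of the 15 inhibitors 9 were above Control in the low combination, and the 3 with an unadjusted p under 0.05 (where 9.58% of all genes had one) were members of the SOCS family, Socs6 with 0.28, Socs2 with 0.22 and Socs4 with 0.21, and adjusted p between 0.511 and 0.514. The Socs2 value was 0.09 without replicate 3, the array with the highest pituitary markers. Socs6 ran from 6.71 to 7.29 in that group and from 6.46 to 7.22 in Control, and its differences in the other groups were between -0.04 and 0.11. Of the other SOCS genes, Socs5 stood at 0.08, Socs1 at 0.05, Socs7 at -0.07 and Socs3 at -0.09 there. The 8 adaptors and sheddases include Adam10 and Adam17, which release the soluble IL-6 receptor. Of these 8 genes 0 had an unadjusted p under 0.05 in any comparison with Control, where 1.4% to 9.58% of all genes did. The lowest difference among them was -0.29 for Shc1 in TNF.

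**Figure D3:**
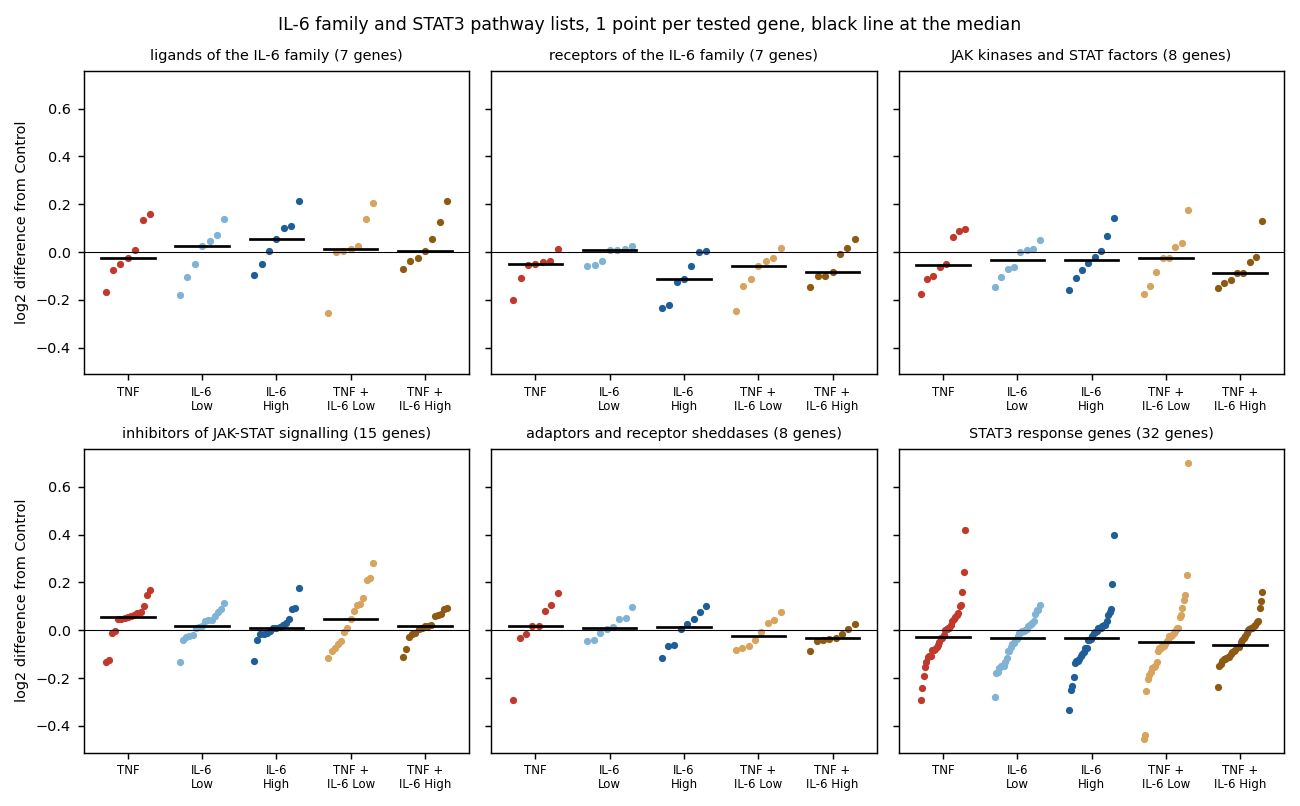
Log2 difference from Control (vertical axes) of each tested gene of the 6 pathway lists in the 5 treated groups (horizontal axes), 1 point per gene in rising order with the list's median as a black line. The medians lie between -0.11 and 0.06, and the widest points are STAT3 response genes in the low combination, Lcn2 at 0.70 and Vim at -0.45.

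Of 38 genes known to respond to STAT3, 32 were tested, among them Socs3, Stat3 and Osmr, which are also described above. Above Control were 15 of 32 in TNF (55.4% of all genes), 11 in IL-6 Low (45.9% of all), 12 in IL-6 High (52.6% of all), and 9 and 11 in the low and high combination (44.1% and 37.7% of all). In that order the list medians were -0.03, -0.03, -0.03, -0.05 and -0.06, beside medians of all genes of 0.01, -0.01, 0.00, -0.02 and -0.02. Fga, Fgb, Fgg, Saa3 and Hamp, acute phase genes of the liver, were not over the minimum on enough arrays (Hamp was on 1 and the other 4 on 0). The lowest differences of the list were those of 2 intermediate filament genes, in the low combination. Vim, vimentin, ran from 7.74 to 8.45 in the low combination (median 8.18) and from 7.90 to 9.19 in Control (median 8.60), a difference of -0.45 ± 0.14 (SE) with an adjusted p of 0.511 by limma. Its differences were -0.29 in TNF, -0.28 at 50 pg and -0.33 at 800 pg IL-6, and -0.24 in the high combination. The Control mice varied most, with an SD of 0.48 against 0.16 to 0.23 in the treated groups, and the difference in the low combination went from -0.60 without Control replicate 6 to -0.34 without Control replicate 1. In that group 10 of 10 meningeal fibroblast markers (median -0.57) and 5 of 6 smooth muscle and pericyte markers (median -0.44) were lower too. Their part in the Vim level was not tested.

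Gfap, the STAT3 target whose promoter is shown above, ran from 8.24 to 9.19 in the low combination (median 8.56) and from 8.13 to 9.59 in Control (median 9.17). The difference was -0.44 ± 0.18 (SE), with an adjusted p of 0.511, and it was -0.62 without Control replicate 6 and -0.33 without Control replicate 4. The other Gfap differences were 0.01 in TNF, -0.17 at 50 pg and -0.25 at 800 pg IL-6, and -0.05 in the high combination. Lcn2, lipocalin 2, an acute phase gene of vessels and glia, had the highest difference of the list, 0.70 in the low combination. There 1 array, replicate 3, stood at 8.09 while the group median was 5.47, and without it the difference was 0.23. It was also the array with the highest pituitary markers, and their part in the Lcn2 level was not tested. The Lcn2 difference was 0.42 in TNF (0.22 without TNF replicate 5) and 0.40 in IL-6 High (0.13 without IL-6 High replicate 4), 0.16 in the high combination and 0.09 in IL-6 Low. Batf, a transcription factor of the AP-1 family, differed by 0.19 in IL-6 High.

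The 8 genes did vary between mice of the same group, and some of this variation was shared. The following correlations were taken over 35 arrays on deviations from the group means and are descriptions, since genes on 1 array share its RNA and its hybridisation. Of 28 pairs among the 8 genes 19 had r above 0, with a median of 0.12. Il6st, Jak1 and Stat3 formed the closest group, with r = 0.63 (Spearman's rho 0.54) for Il6st and Jak1, 0.62 (0.59) for Jak1 and Stat3 and 0.52 (0.49) for Il6st and Stat3. The lowest r was that of Lifr and Stat3, -0.33. Socs3 and Il6ra stood apart. For Socs3, r with the other 7 was between -0.22 and 0.11, and with Stat3 it was 0.11. For Il6ra, r with the other 7 was between 0.08 and 0.17, and with Stat3 it was 0.09.

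Markers of cell types went with most of these genes. Osmr followed the mean of 6 endothelial markers, with r = 0.74 (rho 0.78), or 0.67 without the 2 arrays farthest from the median, and that of smooth muscle and pericyte markers with r = 0.58. The genes most like Osmr among 15048 were Myof (0.80), Abcg2 (0.80) and Abcb1a (0.77), and the last 2 encode efflux transporters of the blood-brain barrier. Lifr followed 3 oligodendrocyte markers with r = 0.66 (0.54 without 2 arrays). It also went with markers of blood and leukocytes (0.56, or 0.36 without 2 arrays), smooth muscle and pericytes (0.44) and endothelial cells (0.42). It ran against markers of tanycytes and ependymal cells (-0.66) and of the hypothalamus (-0.55). Stat3 went with the 11 hypothalamic markers (r = 0.63, or 0.66 without 2 arrays) and with those of tanycytes and ependymal cells (0.58). The mean of the hypothalamic markers was farthest above its group mean (0.44) in replicate 3 of the low combination. That array also had the highest pituitary markers and was not among the 2 left out. The hypothalamic list includes Pomc, with a median of 6.02 and a highest level of 11.45. The part of adhering pituitary in the hypothalamic mean was not tested. Jak2 went with neuronal markers (0.43, or 0.39 without 2 arrays) and against hypothalamic ones, as given above. Il6st and Jak1 went with markers of neurons (0.57 and 0.64), astrocytes (0.56 and 0.56) and microglia (0.57 and 0.60) alike. The marker lists share Gfap between astrocytes and the STAT3 response genes, and Rax between hypothalamus and tanycytes.

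**Figure D4:**
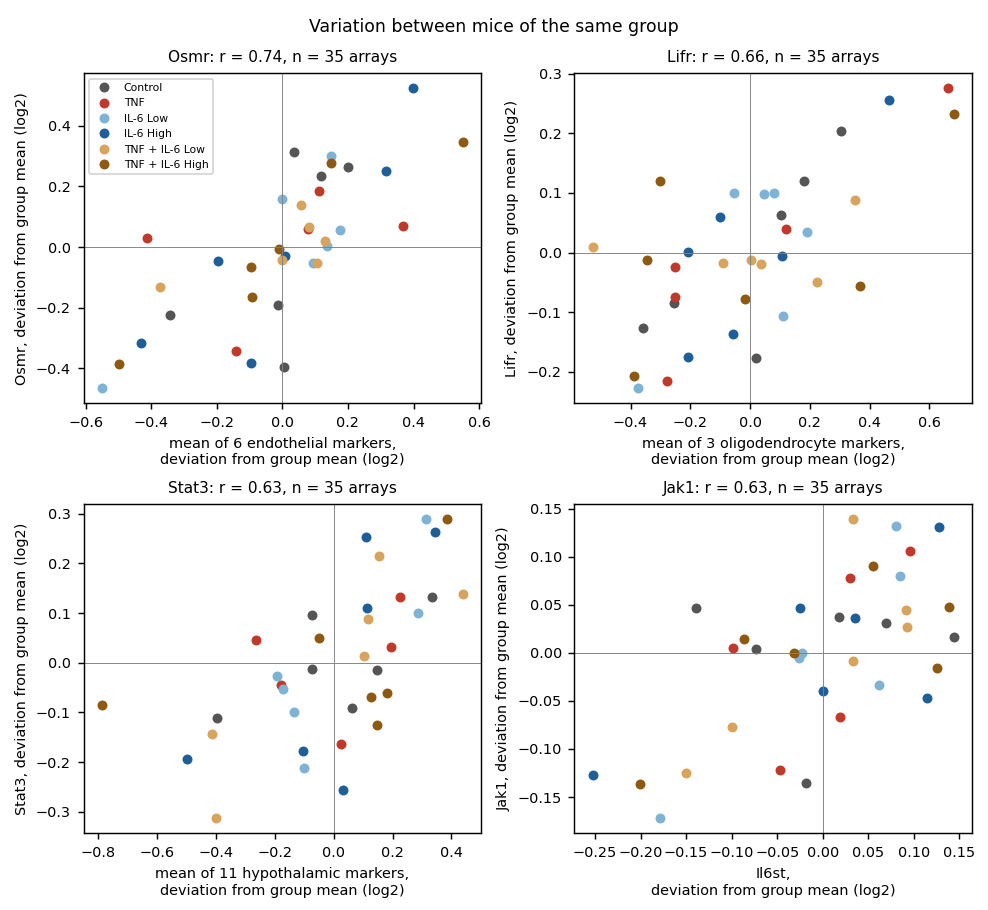
Deviations from the group mean on the log2 scale over 35 arrays, coloured by group, for Osmr against 6 endothelial markers, Lifr against 3 oligodendrocyte markers, Stat3 against 11 hypothalamic markers and Jak1 against Il6st. Over the 35 arrays the points rise in each panel, with r between 0.63 and 0.74.

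Part of this pattern went with an array measure too. The first principal component of all tested genes, whose sign is arbitrary, held 17.1% of the variance and had r = 0.74 with the interquartile range of the array and -0.74 with the endothelial score. With this component r was 0.74 for Stat3, 0.67 for Jak1, 0.37 for Il6st, -0.46 for Jak2 and -0.52 for Osmr. The genes most like Jak1 were Gpat4 (0.90), Taok2 (0.87) and Ttc9 (0.87), those most like Jak2 Mbnl1, Ddx5 and Fmr1 (0.82 to 0.83), and those most like Stat3 Rab1b, Aldh2 and Galnt2 (0.84 to 0.85). Zhx2, Dpp3 and Sel1l were most like Il6st (0.75 to 0.83), and Daam2, Usp54 and Myo1d most like Lifr (0.81 to 0.82). The values were lower for Il6ra (Ghrhr, Best3 and Pappa2, 0.61 to 0.62) and Socs3 (Snord95, Rnaseh2c and Prr15, 0.56 to 0.57). Without the 2 arrays farthest from the median of the partner they ran from 0.22 to 0.49 for Il6ra and from 0.31 to 0.53 for Socs3. Whether tissue composition or the array set these correlations was not tested.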

How the data were processed

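Hypothalamic RNA of 36 mice was hybridised to 1 array each. The authors summarised the arrays with RMA (background correction, quantile normalization and a summary over probes) and deposited 1 log2 intensity per transcript cluster and array, with clusters as the manufacturer defined them. The version of RMA and a genome build are not given in the sources used here. The probe remapping of the study's methods was not used. Of 35556 clusters 21218 name 1 gene, 1881 several and 12457 none. Symbols were updated through Entrez IDs, and for 1386 genes with several clusters the one of highest mean was taken. The column headers matched 1 sample each, and 0 columns were left over. Replicates are separate mice.

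Groups follow the sample titles, which call the TNF dose low, while doses are those of the study's methods. Control replicates 5 and 6 carry other mouse numbers in the labels than in the array names. The numbers in their array names are also those of replicates 5 and 6 of the high combination. Both sources give Control, and these Control arrays were kept there. Whether arrays of Control and of the high combination were exchanged was not tested. Fits without Control replicates 5 and 6 are among the alternatives listed below. TNF replicate 4 was left out by the rule that defines the gene set.

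The analysis was run in R 4.3.3 with limma 3.58.1. A single model of 6 groups was fitted to the 15049 genes with lmFit, then eBayes with an intensity trend, Benjamini-Hochberg adjustment and a threshold of 0.05. The number of arrays limits the precision. The median standard error of a difference from Control was 0.10 on the log2 scale. Alternatives were other intensity minimums, median centring, quantile normalization, array weights, all 36 arrays, the replicate number as a block, each array left out in turn and, added after seeing the data, Control replicates 5 and 6 left out.

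Named are the 9 genes, up to 4 further genes of smallest p per pathway list, markers, and the 3 genes most like each of the 8 tested. The genes and lists were chosen with earlier results of these data known. Sequences are from RefSeq.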

Additional observations from a re-analysis of the deposited data

Results flagged for a closer look

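In 2 of the 54 sets of values of 1 gene in 1 group, an array stood apart from the rest of its group by Dixon's criterion, which chance alone meets in about 1 of 20 sets. Il6 in Control replicate 3 was at 2.49 and the nearest of the other 5 Control arrays at 2.02, a gap of 0.733 of the group's range where the critical value is 0.625. All of these Il6 values are under the minimum intensity. Jak1 in Control replicate 1 was at 9.27 and the nearest array at 9.41, a gap of 0.765 of the range.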

How the results depend on the processing

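The count of genes with an adjusted p under 0.05 by limma was 0 in all 11 comparisons and under all alternatives, the fits with 1 array left out included (range 0 to 0). The smallest adjusted p of any gene in them was 0.0677, in TNF. The 8 genes gave 435 differences under other settings, of which 15 changed sign, and 472 with 1 array left out, of which 46 did; 0 passed the threshold. With all 36 arrays the Jak2 difference in TNF was -0.28. With a minimum intensity of 50, 11583 genes were tested and Socs3 was not among them. The counts at an unadjusted p under 0.05 moved more than this: from 522 (without TNF replicate 5) to 1355 (without TNF replicate 3) in TNF, and from 635 (without TNF + IL-6 Low replicate 5) to 2315 (without TNF + IL-6 Low replicate 1) in TNF + IL-6 Low. The cause was not tested. Median centring and quantile normalization moved the median of all genes by less than 0.05.

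With the replicate number as a block, 0 genes passed in any comparison, and the genes with an unadjusted p under 0.05 numbered 805 in TNF, 256 at the low and 373 at the high dose of IL-6, and 1613 and 368 in the low and high combination. The deviations of 85 same-numbered pairs had correlations from -0.31 to 0.58 with a median of 0.07, and 36 were above 0.1. Those of 425 pairs of different number and different group ran from -0.42 to 0.50 with a median of -0.03. Of 35 arrays 11 correlated best with one of their own number. Whether mice of the same number share more than others was not tested.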
